A study of Homo sapiens with 6 samples.

Results

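The chromosome 17q gene block is the stretch of the long arm of human chromosome 17 in which transcripts lay lower in osimertinib-resistant lung cancer cells than in their parental line. Its members are all genes listed on chromosome 17 with a start between 28.4 and 76.6 Mb on GRCh38, a span of 48.2 Mb. The limits were chosen by earlier results of the resistant against control comparison, so every difference in that comparison is given below as a description and supports nothing by itself. The block holds 1044 of the 30330 genes in the files, and the rest of chromosome 17 holds 827. Of the 1044 members, 576 are protein-coding, 305 are long noncoding RNAs, 114 are pseudogenes and 49 are small RNAs or of other classes.

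NCI-H1975 is an established human lung adenocarcinoma cell line, and osimertinib is a drug that blocks the kinase of the mutated EGF receptor. The resistant line, H1975/OSI, was derived from it over 7 months through osimertinib at 0.03, 0.1, 0.3, 1 and 3 µM, and its resistance is labelled at 3 µM. RNA-seq was deposited for 3 resistant libraries (titled Drug) and 3 control NCI-H1975 libraries (titled Control), and the labels do not say whether osimertinib was present at harvest or in the controls. H1975/OSI is a single derived line, and nothing states that the libraries of a group came from separate cultures, so the spread within a group may be technical and the comparison is between these lines.

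Genes that lie next to each other on a chromosome share their copy number and part of their chromatin surroundings, while each is also driven by its own promoter and enhancers. The long arm of chromosome 17 carries both kinds of content: broadly expressed genes for proteasome, ribosome, mitochondrial and mitotic proteins, and clusters of duplicated genes used in particular tissues, among them the type I keratins, the CCL chemokines, the Schlafen genes and the HOXB homeobox genes. It also carries ERBB2, a receptor tyrosine kinase of the epidermal growth factor receptor family, with its neighbour GRB7, an adaptor. DNA was not analysed here.

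Values are normalised read counts, that is, reads per gene divided by a scaling factor of each library. The libraries held 15174126 to 16588479 reads. The log2 difference of a gene is the resistant minus the control mean of log2(value + 1), with n = 3 per group. A member is called lower or higher when limma-trend gave a Benjamini-Hochberg adjusted p under 0.05 over the 24560 genes that reached a value of 1 in at least 3 libraries. Of the markers of lung adenocarcinoma cells, 9 of 10 were at a mean of 10 or more; SFTPB, a surfactant protein, was at 0 to 8.67. EPCAM was at 15.7 to 19.7 in the resistant libraries and 353 to 391 in the controls. The summed list was at 45238 to 53292 in the resistant and 63992 to 67871 in the control libraries. It includes KRT19, which is itself a member and was called lower. The blood cell markers CD68 and LYZ were at 0 to 5.10, and PTPRC and CD3E were not analysed here. Of 3 endothelial markers, CDH5 and PECAM1 were above 10 (PECAM1 is itself a member and was called lower), and the summed list was at 557 to 751 in the resistant and 289 to 329 in the control libraries. CDH5 was at 464 to 670 in the resistant and 123 to 129 in the control libraries, and PECAM1 at 78.9 to 88.7 and 157 to 199. Of the fibroblast markers, PDGFRB alone was above 10, and the summed list was at 117 to 155 and 79.0 to 127; PDGFRA and DCN were not analysed here. Mitochondrial transcripts took 5.33% to 5.66% of the resistant and 6.46% to 7.34% of the control libraries. The part of these differences in the block was not tested.

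The starts of the well-expressed protein-coding genes on each side of the set limits are shown to place the block on the sequence. Each line gives the 250 bases before 1 RefSeq transcription start of the gene, 5′ to 3′ on its strand, on GRCh38.p14. All 4 genes lie on the minus strand. The SLC46A1, RHBDF2 and MXRA7 windows lie inside the listed gene spans, which reach 28407197, 76501790 and 76711016. Their box counts are therefore those of these windows, and windows before other starts of the genes were not searched. SLC46A1, a folate transporter, is the last whose listed start, the lower coordinate of the gene (28394756), lies before the start limit; its transcription start and its window, chr17:28406213-28406462, lie past that limit, inside the span. UNC119, a carrier of lipid-modified proteins, is the first inside, at chr17:28552629-28552878. RHBDF2, an inactive rhomboid protein of growth factor shedding, is the last inside, at chr17:76501424-76501673. MXRA7, a matrix-associated protein, is the first after the end limit, at chr17:76709559-76709808. Capitals mark the GC box GGGCGG on either strand.
SLC46A1: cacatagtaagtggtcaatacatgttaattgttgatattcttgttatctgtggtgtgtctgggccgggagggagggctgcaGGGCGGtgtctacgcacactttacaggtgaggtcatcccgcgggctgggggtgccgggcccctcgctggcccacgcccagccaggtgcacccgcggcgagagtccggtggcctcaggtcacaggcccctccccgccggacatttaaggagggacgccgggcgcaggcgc
UNC119: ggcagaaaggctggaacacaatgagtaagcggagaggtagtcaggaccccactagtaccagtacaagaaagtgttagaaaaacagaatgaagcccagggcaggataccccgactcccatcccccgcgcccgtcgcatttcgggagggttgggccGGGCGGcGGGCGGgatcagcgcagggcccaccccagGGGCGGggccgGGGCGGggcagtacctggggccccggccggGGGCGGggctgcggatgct
RHBDF2: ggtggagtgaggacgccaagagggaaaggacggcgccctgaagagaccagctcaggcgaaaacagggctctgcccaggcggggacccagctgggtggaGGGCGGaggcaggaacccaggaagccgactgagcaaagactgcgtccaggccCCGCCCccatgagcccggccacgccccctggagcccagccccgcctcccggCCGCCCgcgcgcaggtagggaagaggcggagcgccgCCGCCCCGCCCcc
MXRA7: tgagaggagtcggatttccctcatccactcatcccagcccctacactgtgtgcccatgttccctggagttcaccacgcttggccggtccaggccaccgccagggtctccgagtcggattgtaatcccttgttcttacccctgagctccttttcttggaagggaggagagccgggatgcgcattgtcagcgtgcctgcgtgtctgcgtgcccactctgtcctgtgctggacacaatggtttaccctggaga
The CCAAT box was also searched on both strands, as were the core promoter element TATAAA and the E-box element CACGTG, and these windows held no match to any of them; of all windows 33.0%, 11.1% and 6.50% did. The UNC119 and RHBDF2 windows each held 5 GC boxes, some overlapping or adjoining, the SLC46A1 window held 1 and the MXRA7 window held 0. Of 27195 RefSeq windows of this length, 42.4% held at least 1 GC box. UNC119 itself was called higher, with 779, 678 and 653 normalised reads in resistant libraries 1 to 3 and 426, 414 and 399 in control libraries 1 to 3. RHBDF2 was at 909, 923 and 991 against 969, 922 and 844, and its groups overlapped. Neither UNC119 nor RHBDF2 was called lower.

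Members lay lower in all 3 resistant libraries, by about the same amount in each. In bulk RNA a lower value can mean fewer cells with a transcript or less of it per cell, and these cannot be told apart. The filter kept 854 of the 1044 members (81.8%); the other 190 held 729 reads over the 6 libraries and had a mean value of at most 1.90. Taken without any filter, the block supplied 2.35%, 2.40% and 2.38% of the normalised reads of resistant libraries 1 to 3 and 3.39%, 3.35% and 3.37% of those of control libraries 1 to 3. The means were 2.38% ± 0.023 and 3.37% ± 0.022 (SD, n = 3), a ratio of 0.706, and the groups did not overlap. The part of chromosome 17 before the block supplied 1.72% ± 0.034 and 1.86% ± 0.029, and the part after it 0.917% ± 0.029 and 0.941% ± 0.030. The block thus stood lower by 0.99 percentage points, and the 10 members of highest level did not make up the whole of it: without them the difference was -0.72 points.

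**Figure D1:**
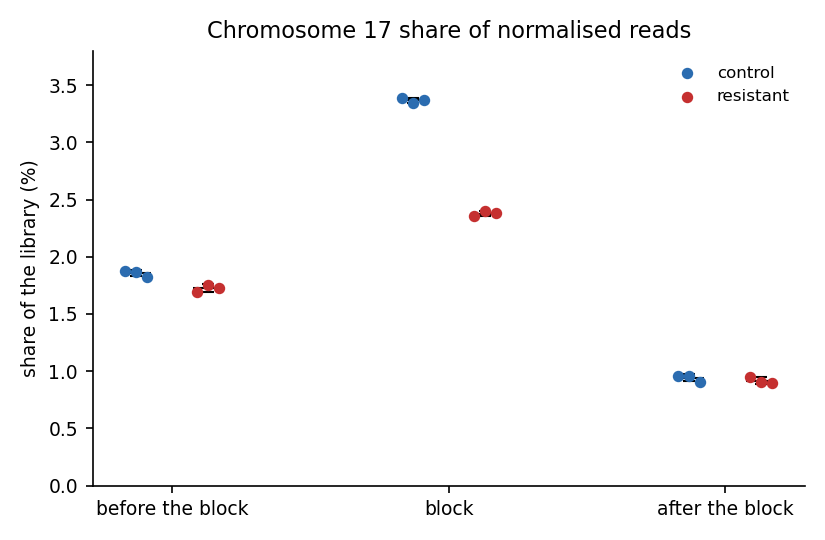
Share of each library's normalised reads (%, vertical axis) from chromosome 17 genes before the block, in it and after it. Points are libraries (blue control, red resistant) and black bars are the mean and SD of 3; the block points are at 3.35% to 3.39% in controls and 2.35% to 2.40% in resistant libraries.

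The median log2 difference of the 854 members was -0.47, with the middle 50% between -0.88 and 0.04, and 73.0% of members lay below 0. For the 684 filtered genes on the rest of chromosome 17 the median was -0.03 (-0.03 before the block, -0.05 after it), and for the 23022 on other chromosomes it was 0.03. Measured library by library against the control mean, the block median was -0.47, -0.48 and -0.47 in resistant libraries 1 to 3 and 0.01, 0.02 and -0.02 in control libraries 1 to 3. The spread of the block median between resistant libraries (SD 0.006) was small beside the distance between the groups. Among the 443 members at a mean of 50 or more over the 6 libraries, the median was -0.57, the middle 50% lay between -0.86 and -0.21, and 83.5% lay below 0. The 349 such genes on the rest of the chromosome had a median of -0.09, with 57.0% below 0.

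Of the 854 members, 385 were called lower (45.1%), 50 higher (5.85%) and 419 neither. Over all 24560 genes, 21.1% were called lower and 20.4% higher, 41.5% in either direction. On the rest of chromosome 17, 159 of 684 were called lower and 131 higher. At a 2-fold size, 134 members were called lower and 25 higher, beside 5.72% and 7.86% of all genes. In 422 members every resistant library lay below every control library, and in 68 every one lay above, beside 25.4% and 24.7% of all genes. The rule used this comparison, so nothing is read from these counts.

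**Figure D2:**
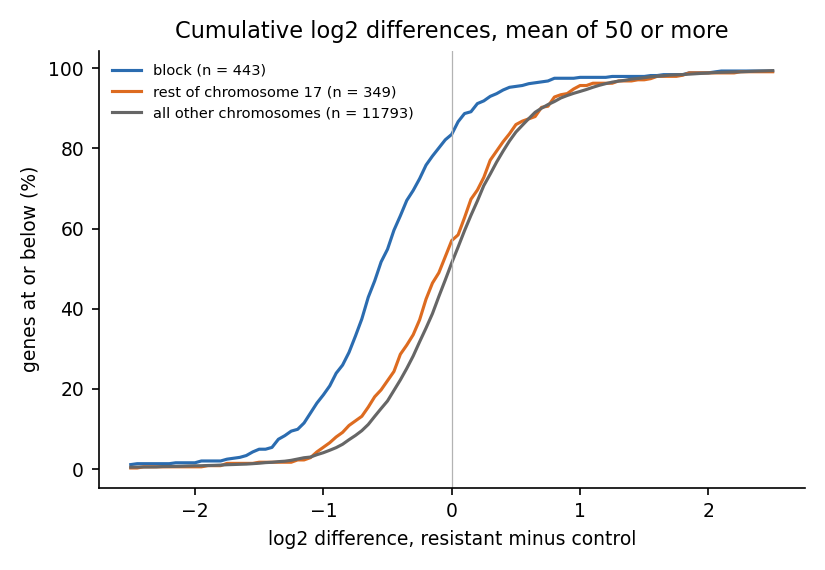
Percent of genes (vertical axis) at or below each log2 difference, resistant minus control (horizontal axis), for genes at a mean of 50 or more. The curve of the 443 block genes lies to the left of the others around 0: 83.5% of block genes are below 0, beside 57.0% of the 349 on the rest of chromosome 17 and 51.4% of the 11793 on other chromosomes.

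The depth of the shift varied along the block. In 5 Mb bins from the start limit, the median of members at a mean of 50 or more was -0.48, -0.62, -0.52, -0.43 and -0.54 in the first 5 bins. It was -0.76, -0.84 and -0.80 in the 3 bins from 53.4 to 68.4 Mb, -0.29 in the bin from 68.4 to 73.4 Mb, and -0.53 in the last, from 73.4 to 76.6 Mb. The 3 resistant libraries followed the same course: between 53.4 and 68.4 Mb they lay at -0.74 to -0.88, and the control libraries lay at -0.02 to 0.03. Summed over all members of a bin, the normalised reads of the resistant libraries came to 0.45 of those of the controls in the bin from 63.4 to 68.4 Mb (26540 ± 837 against 58599 ± 137) and to 0.88 in the bin from 68.4 to 73.4 Mb (7150 ± 132 against 8117 ± 71.7). Summed in the same way, the whole block came to 0.664, while the 0.706 given above is a ratio of library shares. The shallowest bin held 10 members at a mean of 50 or more. Some of it is sparse: the widest stretch without a tested start inside the block ran from 51260528 to 53105734, 1.85 Mb. Neighbouring bins of the block thus differed in depth, and no bin had a median above 0.

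**Figure D3:**
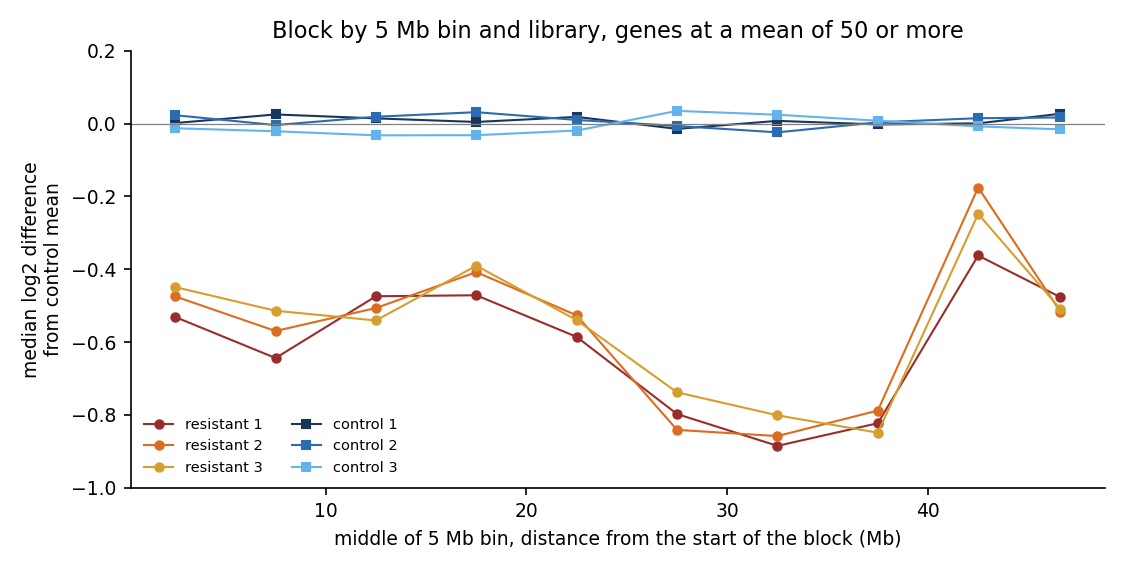
Median log2 difference from the control mean (vertical axis) of block genes at a mean of 50 or more, by 5 Mb bin (horizontal axis, Mb from the start of the block), 1 line per library. Resistant libraries lie between -0.18 and -0.88 in every bin and control libraries between -0.03 and 0.03.

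Set beside the genome in bins of 5 Mb with at least 10 such genes, the 9 bins wholly inside the block lay between -0.84 and -0.29. Of the 424 other bins, 50 lay at or below the highest block bin, 21 of them on chromosome 5, 9 on chromosome 2, 7 on chromosome 10 and 2 on chromosome 17. One of those on chromosome 17, from 73.4 Mb, runs past the end limit and is mostly block, with 51 members among its 67 genes, and the other, with 11 genes, lies just before the block. The middle 50% of the other bins lay between -0.13 and 0.11. Single bins as low as the shallowest block bin, which held 10 such genes, were therefore not limited to chromosome 17. Stretches as long as the block were not compared.

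At the start of the block the shift did not begin at the limit. The 25 filtered genes inside had a median of -0.57 and the 25 outside -0.28, a step of -0.29. That step was -0.15 without resistant library 3, -0.17 without control library 2 and -0.43 without control library 1. No tested gene starts between 22090743 and 27294076, a 5.2 Mb stretch that holds the centromere. Between that stretch and the start limit lie 11 genes at a mean of 50 or more, with a median of -0.44, of which 7 were called lower and 2 higher. The 243 such genes before the stretch, on the short arm side, had a median of -0.05. The outside genes nearest to the limit went both ways: SARM1, an enzyme of axon degeneration, was called lower (119, 140 and 128 against 172.5, 191 and 164), VTN, the matrix protein vitronectin, higher (189 ± 20.8 against 123 ± 13.4), and SLC46A1 was not called (138 ± 10.7 against 131 ± 7.89). These 3 genes overlap on opposite strands, and how strand was counted is not given in the sources used here, so their reads cannot be told apart; the SARM1 call was also lost without control library 2 (log2 difference -0.38). Inside, PIGS, a subunit of the transamidase that attaches lipid anchors, was called lower with 1008, 968 and 995 against 1396, 1319 and 1242, and ALDOC, a glycolytic aldolase, was not called (868 ± 126 against 953 ± 39.9), but was called lower without resistant library 1 (-0.26) and with median centring (-0.28).

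At the end the shift faded before the limit. In steps of 0.5 Mb, the members at a mean of 50 or more had medians of -0.56 from 74.5 Mb, -0.63 from 75 Mb, -0.47 from 75.5 Mb and -0.28 from 76 Mb, and the 7 genes from 76.5 to 77 Mb were at 0.27. With all filtered genes, the 25 inside and the 25 outside the end limit both had a median of -0.08, a step of 0.00 that ranged from -0.29 without control library 2 to 0.20 without resistant library 1. Measured library by library against the control mean, the step was -0.20, -0.34 and -0.43 in resistant libraries 1 to 3. It was 0.08, -0.02 and 0.07 in control libraries 1 to 3. With genes at a mean of 50 or more, the medians were -0.35 and 0.09. H3-3B, which encodes the replacement histone H3.3 and starts at 75.78 Mb, was called lower with 4666, 4151 and 3986 against 7938, 7900 and 8042. UBE2O, a ubiquitin-conjugating enzyme that starts at 76.39 Mb, was called higher with 1632, 1363 and 1369 against 1134, 1057 and 1134. The 3 coding members nearest to the limit (CYGB, PRCD and ST6GALNAC2) were all at a mean under 30 in either group. Beyond the limit MXRA7 was called higher (3624, 2797 and 2776 against 1963, 1934 and 1779), as were JMJD6, a hydroxylase (log2 difference 0.27), and METTL23, a methyltransferase (0.35). The call of JMJD6 was lost without resistant library 1 (0.15) and without each control library (0.27 to 0.28), and that of METTL23 without control library 2 (0.30). Both calls were also lost with median centring (0.14 and 0.21) and in limma without a trend.

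**Figure D4:**
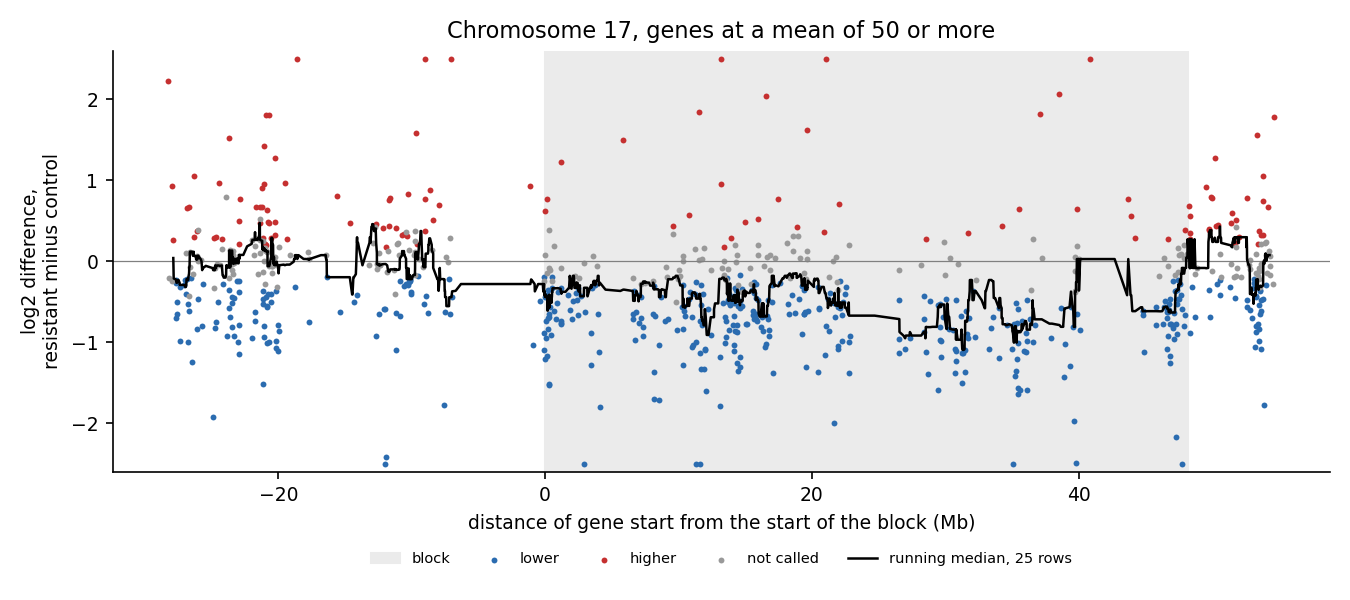
Log2 difference of each chromosome 17 gene at a mean of 50 or more (points; blue called lower, red higher, grey neither) against the distance of its start from the start of the block (Mb). The black line is the median over 25 adjacent filtered genes and the grey band is the block. Of 792 points, 12 beyond 2.5 are drawn at that limit. The line falls below 0 before the band begins and comes back to 0 before it ends. It also dips outside the band, to -0.41 about 14.4 Mb and to -0.55 about 7.3 Mb before the start of the block.

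Inside the block the running median was not low throughout. A running median over 25 adjacent filtered genes stood above the midpoint between the block and the rest of the chromosome (-0.25) in 9 gaps of at least 5 adjacent windows. With members at a mean of 50 or more there were 3 gaps, from 45.51 to 46.98, 47.25 to 47.82 and 76.04 to 76.56 Mb. With protein-coding members alone there were likewise 3, from 36.59 to 37.41, 41.52 to 42.01 and 76.00 to 76.57 Mb. Not every gap is a break in the shift of abundant members: the 2 members at a mean of 50 or more had a median of -0.94 in the gap from 45.40 to 45.55 Mb and of -0.84 in that from 48.55 to 48.89 Mb, both below the -0.57 of the block. Gaps were set beside those in 15 alternatives, which leave out edgeR, DESeq2, limma without a trend and the replicate block. Median centring, among the 15, moves every difference and the midpoint alike, so it had to return the same 9 gaps. The gap at the end, from 76.07 to 76.57 Mb with 24 filtered members, overlapped a gap in 15 of 15 alternatives. It held EXOC7, a subunit of the exocyst (800 ± 69.5 against 748 ± 16.2), PRPSAP1 (449 ± 19.2 against 434 ± 14.7), RHBDF2 and UBE2O. It also held the member with the largest fall, FOXJ1, a transcription factor of multiciliated cells: 2.04, 2.77 and 0.99 in the resistant and 153, 128 and 104 in the control libraries, a log2 difference of -5.49 ± 0.33 (SE).

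The next most repeatable gap lay from 46.19 to 47.60 Mb, with 25 filtered members, and overlapped a gap in 12 of 15 alternatives. Some of its members, such as LRRC37A and NSFP1, belong to duplicated copies whose reads cannot be placed with certainty. NPEPPS, a cytosolic aminopeptidase that also has near copies, was not called, with 2838, 2696 and 2675 against 2684, 2625 and 2703. ITGB3, the beta 3 integrin chain, was called higher with 399, 348 and 344 against 297, 296 and 226, a call lost in limma without a trend. Both lie among members called lower: NSF, the ATPase that takes apart membrane fusion complexes, had a log2 difference of -0.52, and CDC27, a subunit of the anaphase-promoting complex, of -0.64. Of the 25 members, 8 were called lower, 2 higher and 15 neither, beside 21.1% lower and 20.4% higher over all genes.

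Neighbouring gaps from 68.25 to 68.42 Mb and from 68.51 to 71.10 Mb each overlapped one in 10 of 15 alternatives. Neither overlapped a gap at a mean of 50 or more or with protein-coding members alone. The first lies at the end of the deep bin from 63.4 to 68.4 Mb and the other in the shallow bin after it. ARSG, a lysosomal sulfatase, and WIPI1, an autophagy protein, overlap each other and were not called (124 ± 17.2 against 108 ± 15.2 and 323 ± 34.5 against 316 ± 12.9). PRKAR1A, the regulatory subunit of protein kinase A, starts 1 of them and was called lower, with 1601, 1547 and 1788 against 2920, 2858 and 3089. ABCA5, a lipid transporter of a tandem gene cluster, was called higher with 391, 296 and 329 against 23.6, 17.7 and 29.9. ABCA10, which overlaps it, was at 0 to 12.8 in all 6 libraries, and its call was lost in 5 alternatives, among them without resistant library 3 or control library 3 (log2 differences 1.72 and 1.12). The groups of ABCA5 lay far apart and those of its near neighbour PRKAR1A lay apart in the other direction.

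The gap from 41.46 to 42.01 Mb (overlapping one in 9 of 15 alternatives) spans part of the type I keratin cluster, and the gap from 48.55 to 48.89 Mb (5 of 15) part of the HOXB cluster. EIF1, a translation start factor next to the keratins, was not called with 7930, 6045 and 5843 against 6996, 6890 and 6934; without resistant library 1, the high one, it was called lower (-0.22), as it was with median centring (-0.22). FKBP10, a collagen chaperone, was called higher with 3649, 3286 and 3336 against 3024, 3135 and 2888, a call lost without control library 1 (0.18) or 3 (0.15), with median centring (0.05) and in limma without a trend. The remaining gaps were 32.27 to 32.41 Mb (5 of 15) around C17orf75 (309 ± 14.3 against 325 ± 46.2) and RHBDL3, which was at 0 to 1.85; 37.61 to 38.42 Mb (11 of 15) around SOCS7 (286 ± 18.7 against 333 ± 8.85) and ARHGAP23 (589 ± 22.1 against 637 ± 45.6), both called lower with median centring; and 45.40 to 45.55 Mb (11 of 15), where PLEKHM1, a lysosome adaptor, was called lower (-0.51). Each of these 3 held 2 to 7 members at a mean of 50 or more. Of the 3, only that from 45.40 to 45.55 Mb overlapped a gap at a mean of 50 or more. None did with protein-coding members alone.

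The members with broad housekeeping roles stood lower as groups. The lists used here were drawn up with earlier results known, and they are given by count and median beside the median over all 24560 genes, 0.01, and the 21.1% called lower and 20.4% called higher over all genes. All 6 proteasome subunits in the block were called lower, with a median of -1.31 (range -1.56 to -1.11). Of the 36 proteasome genes elsewhere that are compared below, 30 were called lower as well (83.3%) and 0 higher. Most mitochondrial ribosomal, helicase and kinesin genes elsewhere were also called lower (78.6%, 72.1% and 62.1%), and 21.9% of cytosolic ribosomal genes were. For the first 4 of these families the calls alone therefore do not set the block members apart. PSMD11 and PSMD3, subunits of the regulatory cap, were at 1084, 1235 and 1248 against 2580, 2646 and 2488, and at 1532, 1634 and 1623 against 3537, 3613 and 3352. PSMC5, an ATPase of the cap, was at 895 ± 34.4 against 2644 ± 77.3. For PSMD11 and PSMD3 every resistant library lay far below every control library.

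All 19 members of the mitochondrial list were called lower, with a median of -1.09. They include parts of the mitochondrial ribosome (MRPS23, -1.59, and MRPS7, -1.17), the ATP synthase subunit ATP5MC1 (-1.36), the cytochrome oxidase factors TACO1 (-1.41) and COX11 (-1.13), and SLC25A39, a carrier of the inner membrane, with 2767, 2682 and 2582 against 4592, 4412 and 4367. LRRC59, which is known as a protein of the endoplasmic reticulum, was in this list too, with 2222, 2329 and 2338 against 5009, 4813 and 4819. NME1 and NME2, nucleotide kinases that are mostly cytosolic, were at 304 ± 9.58 against 795 ± 7.26 and 46.5 ± 12.4 against 92.6 ± 14.1, and they overlap a read-through gene. No library of a group overlapped the other group for SLC25A39 or LRRC59.

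Of 18 tested members of the DNA replication and mitosis list, 16 were called lower and 0 higher, with a median of -1.02. TOP2A, the topoisomerase of dividing cells, was at 3676, 3586 and 3762 against 7891, 7654 and 7975. KPNA2, a nuclear import receptor that serves proliferating cells, was at 1254, 1548 and 1542 against 5653, 5633 and 5652. CDC6, which loads the replicative helicase, was at -1.33, and the DNA repair genes BRCA1 and BRIP1 at -1.18 and -1.08. TUBG2 and CDK5RAP3 were not called (0.20 and -0.21). NSRP1, AATF and CCDC43 in this list have other or broader roles and were called lower as well.

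All 12 RNA processing factors were called lower, with a median of -0.77. DDX5, an RNA helicase, was the lowest of them, with 4177, 4946 and 5113 against 14086, 14127 and 14544. EFTUD2, a spliceosome GTPase, was at 1596, 1697 and 1729 against 3553, 3557 and 3314, and SRSF1, a splicing factor, at 704 ± 52.9 against 1382 ± 53.1. Of 13 chromatin regulators, 12 were called lower with a median of -0.39, a shallower shift: SUZ12 of the Polycomb complex was at -0.33, and SMARCD2 of the SWI/SNF complex was at 887 ± 82.4 against 1776 ± 62.3. CBX1, a heterochromatin protein, was the one not called, with 1634, 1475 and 1518 against 1453, 1532 and 1568.

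The 5 cytosolic ribosomal protein genes were called lower with a median of -0.55, and they have processed copies elsewhere that can share reads. RPL19 was at 11574, 9878 and 9072 against 13955, 14095 and 13738, and RPL27 at 6337, 5136 and 4744 against 8099, 8051 and 7939. Resistant library 1 was the highest of its group for both and still lay below every control library.

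**Figure D5:**
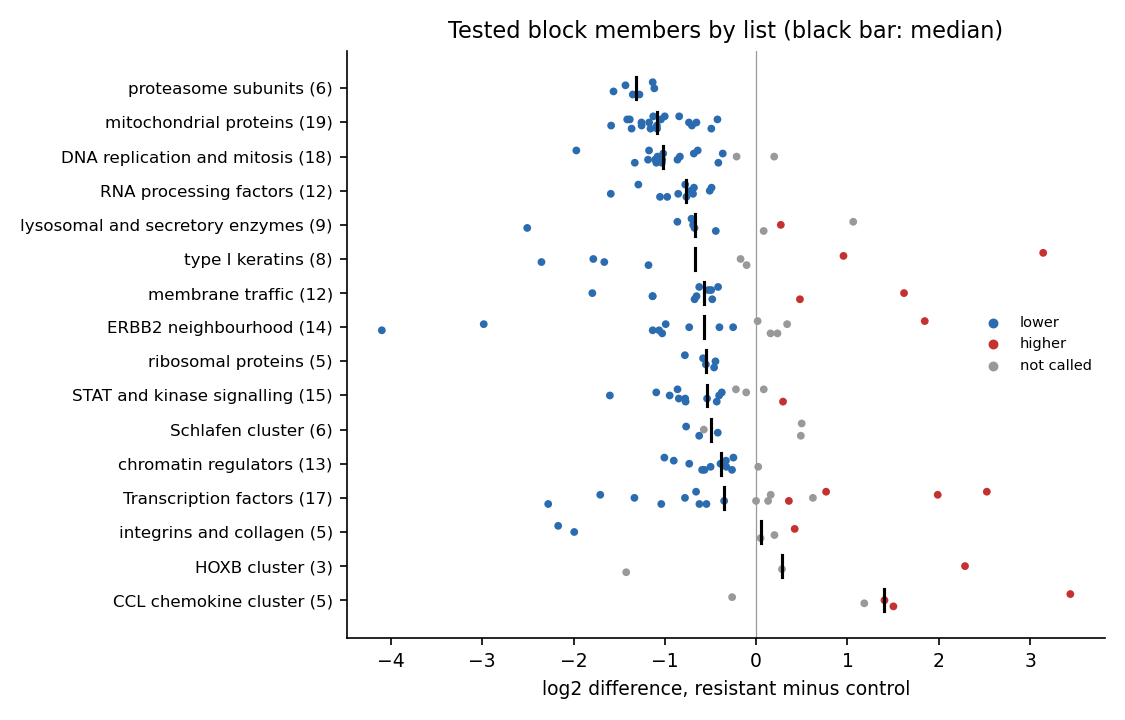
Log2 difference (horizontal axis) of each tested block member (points) in 16 lists, with the number tested in brackets and the list median as a black bar. Blue points were called lower, red higher and grey neither; all points of the proteasome, mitochondrial, RNA processing and ribosomal lists are blue, and the integrin, HOXB and CCL medians lie above 0 (integrins at -0.09 with median centring).

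The same families could be set beside their own members on other parts of the genome, which the rule did not use; the families were chosen after values had been seen, and no test was made. At a mean of 50 or more, the 6 proteasome genes in the block had a median of -1.31 and the 36 elsewhere -0.47, and 0 of those 36 lay below -1.31. The 6 mitochondrial ribosomal genes in the block were at -1.06 and the 70 elsewhere at -0.46, of which 2 lay below the block median. The 5 cytosolic ribosomal genes in the block were at -0.55 and the 73 elsewhere at -0.03 (0.05 with quantile normalization, -0.17 with median centring). Of those 73, 7 lay below the block median. For DDX and DHX helicases the medians were -0.74 (6) and -0.39 (43, of which 11 lay below the block median), and for RAB GTPases, which direct membrane traffic, -0.57 (2) and 0.25 (44, of which 3 lay below). Solute carriers were at -0.23 (6) and 0.06 (206), TMEM genes at -0.41 (4) and 0.07 (141), and zinc finger genes at -0.21 (3) and 0.19 (430), with 62 of 206, 23 of 141 and 65 of 430 below the block median; with median centring the solute carriers and TMEM genes elsewhere were at -0.07 and -0.06. Kinesins were at -1.02 (1, KIF18B) and -0.55 (29). Called lower elsewhere were 83.3% of proteasome, 78.6% of mitochondrial ribosomal, 72.1% of helicase and 62.1% of kinesin genes. In the cytosolic ribosomal, RAB, solute carrier, TMEM and zinc finger families the shares elsewhere were 9.07% to 27.7%. In each of these families the block members had the lower median. The rule chose the block by this comparison, so nothing is read from that. For the proteasome, mitochondrial ribosomal, helicase and kinesin families the medians elsewhere were below 0 as well.

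In the ERBB2 neighbourhood, 9 of 14 tested members were called lower, 1 higher and 4 neither, with a median of -0.57. ERBB2 was at 1256, 1451 and 1505 against 1716, 1812 and 1492, so the groups overlapped; its call (log2 difference -0.25 ± 0.08, SE) was lost without control library 1 (-0.23) or 2 (-0.19), under quantile normalization (-0.18) and in limma run without a trend. It overlaps MIEN1, a small migration-linked protein, which was at -0.99. GRB7 was at 40.8, 45.2 and 32.6 against 295, 308 and 350, and CSF3, the granulocyte growth factor, at 40.8, 64.6 and 50.3 against 911, 891 and 869. Both lay far below the controls in every resistant library, and other called members of the neighbourhood fell by less: MED1 and CDK12 of the transcription machinery were at -1.06 and -1.03 and STARD3, a cholesterol-binding protein, at -0.40. GSDMB, a gasdermin, was called higher (928 ± 55.7 against 258 ± 31.9) and its neighbour ORMDL3, a regulator of sphingolipid synthesis, was not called (824 ± 110 against 814 ± 92.1).

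Of 15 tested STAT and kinase genes, 11 were called lower, 1 higher and 3 neither, with a median of -0.54. STAT3, a transcription factor activated by cytokine and growth factor receptors, was the one called higher, with 3248, 3471 and 3546 against 2921, 2761 and 2689; the call was lost with median centring (0.16) and with limma without trend. STAT5A and STAT5B, which lie beside it, were called lower (-0.54 and -0.41). The adaptor GRB2 was at 1484 ± 84.2 against 2541 ± 29.6, the S6 kinase RPS6KB1 at 529 ± 65.9 against 1125 ± 27.5, and NF1, the RAS GTPase activator neurofibromin, at 1573 ± 101 against 2121 ± 85.7. EVI2B lies inside an intron of NF1 on the other strand, and was at 7.14, 1.85 and 5.92 against 154, 149 and 158, a log2 difference of -4.83 ± 0.32 (SE). IGFBP4, an IGF-binding protein, was at 134 ± 10.3 against 410 ± 44.3.

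Of the 5 integrin and collagen genes, 2 were called lower, 1 higher and 2 neither, and the median was 0.05 (-0.09 with median centring). ITGA3, the alpha 3 integrin chain of a laminin receptor, was at 2854, 2675 and 2680 against 11066, 11627 and 10029. ITGB4, the beta 4 chain of the hemidesmosome, was at 265 ± 112 against 1134 ± 94.4. COL1A1, a chain of type I collagen that starts at 50.18 Mb, beside ITGA3 at 50.06 Mb, was not called, with 5260, 4661 and 4968 against 5198, 4876 and 4349. The log2 differences of these neighbours were -1.99 and 0.05.

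Among the tissue clusters, 4 of 8 tested type I keratins were called lower, 2 higher and 2 neither, with a median of -0.67. Of the 4 called lower, KRT14 and KRT32 were sparse, at means of 3.06 and 5.03 over the 6 libraries. The 5 keratins at a mean of 50 or more had a median of -0.10. KRT19, the keratin of simple epithelia, was at 7857, 4893 and 4872 against 12936, 13390 and 12552. KRT17, a keratin of basal and stressed epithelium, was at 6887, 3493 and 3104 against 474, 506 and 449, and KRT16 was at 368 ± 43.9 against 189 ± 18.0. KRT15, a basal keratin, was at 79.2 ± 18.4 against 270 ± 19.6. Resistant library 1 stood apart for KRT17 and KRT19; without it their log2 differences were 2.79 and -1.41, in place of 3.14 and -1.18. KRT19 and KRT17 start at 41.52 and 41.62 Mb. KRT14, KRT16 and KRT17 are close paralogues with pseudogene copies, and their reads may be shared.

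Of the CCL chemokines 5 were tested: 3 were called higher and 2 neither, with a median of 1.40. With quantile normalization 2 were called higher, and with median centring 2 higher and 1, CCL5, lower (-0.40). CCL2, which attracts monocytes, was at 3247, 4543 and 4411 against 1383, 1391 and 1484. CCL5, which attracts T cells, was at 174, 186 and 160 against 199, 215 and 209. The other members were sparse, with CCL8 at 12.0 ± 9.23 against 0 in every control library. CCL3L3 shares near-identical copies with its neighbours. Of 6 Schlafen genes, which restrict growth and viral replication, 3 were called lower and 3 neither, with a median of -0.50; SLFN5 was at 2428, 2700 and 2871 against 4032, 4168 and 4100 and SLFN13 at 438, 494 and 559 against 826, 799 and 905. Of 3 tested HOXB genes 1 was called higher, with a median of 0.28: HOXB9 was at 62.2, 67.4 and 42.4 against 10.3, 12.5 and 9.64, and HOXB3, at 0.92 to 9.64 in all 6 libraries, was not called, but was called lower in 4 alternatives, among them quantile normalization, median centring and the fit without resistant library 1 (-1.64).

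Of 17 tested transcription factors, 9 were called lower, 4 higher and 4 neither, with a median of -0.35. SOX9, a factor of progenitor cells, was called higher with 2065, 2018 and 2171 against 1217, 1257 and 1202. NFE2L1, a regulator of proteasome genes, was at 4528, 4622 and 4448 against 4291, 4171 and 3964 and was not called, although its groups did not overlap; it was called higher without resistant library 1 (0.13) and with quantile normalization (0.22). MEOX1, a mesodermal homeobox factor, was called higher with 76.5, 96.9 and 73.0 against 19.5, 12.5 and 9.64, and DLX3, an ectodermal homeobox factor, lower with 17.3, 23.1 and 9.87 against 71.9, 90.4 and 81.0. ETV4, an ETS factor, was at 208 ± 0.81 against 358 ± 13.2.

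Of 12 membrane traffic genes, 10 were called lower and 2 higher, with a median of -0.57. CLTC, the clathrin heavy chain, was at 5755, 6297 and 6448 against 13712, 13308 and 13579, and its neighbour VMP1, an autophagy membrane protein, at 5205, 5169 and 5106 against 10937, 11082 and 11964. COPZ2, a coat subunit, was called higher (174 ± 22.7 against 55.9 ± 4.77). Of 9 members listed as lysosomal and secretory enzymes, 6 were called lower, 1 higher and 2 neither, with a median of -0.68. This list is mixed: ACLY and ACACA, which were called lower (-0.69 and -0.44), are enzymes of fatty acid synthesis, and SLC16A5, a monocarboxylate transporter, was the one called higher, a call lost with median centring. GRN, the lysosomal protein progranulin and one of the most abundant members, was not called, with 11858, 10402 and 10089 against 10417, 10782 and 9339; it was called higher with quantile normalization (0.22). ACE, a peptidase of the cell surface, was at 11.2, 25.8 and 12.8 against 89.3, 99.8 and 90.6.

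The remaining members of highest level were CPD, a carboxypeptidase of the secretory pathway, and CAVIN1, a coat protein of caveolae. CPD was at 5320, 5473 and 5487 against 9199, 8766 and 8688, and CAVIN1 at 7424, 7389 and 7331 against 10301, 10738 and 10021. Of the members with the largest rises, NGFR, the low-affinity neurotrophin receptor, was at 222, 173 and 156 against 3.08, 9.35 and 0.96, a log2 difference of 5.39 ± 0.50 (SE). CACNG4, a calcium channel subunit, was at 317, 239 and 255 against 76.0, 48.8 and 68.4. In the 5 Mb bins that hold NGFR and CACNG4, 33 of 74 and 44 of 83 tested members were called lower and 5 and 4 higher, beside 21.1% and 20.4% over all genes.

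Abundant members carried the shift more plainly than sparse ones. In 3 equal groups by level over the 6 libraries, the lowest had a median of -0.26, the middle -0.37 and the highest -0.61, and 80.0% of the highest group were called lower. Calls also rose with level over all genes: 33.4% of those at a mean of 50 or more were called lower, beside 21.1% of all genes. How much of the larger share follows from level alone was not tested. Protein-coding members had a median of -0.52, long noncoding members of -0.33 and pseudogenes of -0.21. On the plus strand the median at a mean of 50 or more was -0.58 and on the minus strand -0.53. Protein-coding members had a median transcript GC content of 52.8%, beside 56.2% on the rest of chromosome 17 and 48.8% on other chromosomes. In 3 equal groups by transcript GC the medians in the block were -0.65, -0.60 and -0.47 from low to high, and in 3 by gene span -0.65, -0.53 and -0.52. The lower median held in each of these classes, and 3 equal GC groups on the rest of the chromosome had medians of -0.049, -0.15 and -0.042.

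Resistant libraries 2 and 3 were nearer to each other than either was to resistant library 1. Over the 443 members at a mean of 50 or more, the median absolute log2 difference was 0.14 between resistant libraries 1 and 2, 0.17 between 1 and 3, and 0.09 between 2 and 3, and it was 0.07 to 0.09 between control libraries. The same pairs outside the block gave 0.14, 0.16 and 0.08 in the resistant and 0.08 to 0.10 in the control group. Without resistant library 1, 391 members were called lower and 46 higher, and the block median was -0.45. The share called over all genes in that fit is not given here, so nothing is read from these counts.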

How the data were processed

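RNA-seq of 3 resistant and 3 control libraries of a human cell line was used. The authors deposited 1 table per library with Ensembl genes, coordinates and a normalised signal value. Per the submitters' processing notes the genome was GRCh38. The aligner, counter, strand setting and normalisation tool are not given in the sources used here. Each deposited signal value proved to be a read number times a factor of its library (100% of values, within 0.001 reads). Reads were thus recovered, 15174126 to 16588479 per library. Counting error weighs more at lower levels, and its size for members at a mean of 50 or more was not measured. No column of another sample was used (0 columns).

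Members were taken by chromosome and gene start. The members and lists were chosen with earlier results of these data known. The scale was log2(value + 1). Genes that reached 1 in at least 3 libraries entered, and groups were compared over all 24560 kept genes with limma-trend (limma 3.58.1, R 4.3.3, robust, group as the sole term), two-sided, Benjamini-Hochberg, threshold 0.05. The scripts were tested on simulated data. Medians, bins, edges and gaps carry no test. A gene set at 0 in 1 group has a fitted difference that depends on the pseudocount. Gaps are runs of 5 or more windows of 25 adjacent kept genes; edges compare 25 genes on each side.

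Named genes are protein-coding: the 3 nearest to each limit on each side, the 10 members of highest level, the 6 largest falls and 6 largest rises among called members with groups that do not overlap and a mean of 50 or more in the higher group, the 2 of highest level in each list, and in each gap the 2 of highest level among those called higher or least changed. Other members named here were chosen after their values were seen.

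Alternatives were other scalings (quantile, median), other filters (none, at least 5, a mean of 50), a pseudocount of 0.1, limma with no trend, a replicate block, edgeR 4.0.16 and DESeq2 1.42.0 on the recovered reads, protein-coding genes only, each library left out, windows of 15 and 51 genes, and other denominators for the read share. Symbols came from a supplied table, with 755 members matched. Promoters came from RefSeq (GRCh38.p14), with 370 of 534 tested coding members matched, too few for a check of promoter composition. Transcript GC content came from GENCODE 29.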

Additional observations from a re-analysis of the deposited data

How the results depend on the processing

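The count of block genes called lower stayed within 1.5 times of 385 in 17 of 17 alternatives (322 at a mean of 50 or more, 424 with median centring, 379 with edgeR and 352 with DESeq2). The count of block genes called higher was 50, and 32 at a mean of 50 or more, where fewer genes are tested. The shares called over all genes in these alternatives are not given here, so nothing about the block is read from the counts. The block median log2 difference of -0.47 was -0.49 with quantile normalization, -0.60 with median centring, -0.42 with no filter, -0.50 at a minimum of 5, -0.57 at a mean of 50, -0.52 at a pseudocount of 0.1, -0.48 with edgeR, -0.49 with DESeq2, -0.52 for protein-coding genes, and -0.49 to -0.45 with a library left out. Median centring moved the median of all genes to -0.12 and the rest of chromosome 17 median log2 difference from -0.03 to -0.17, so the distance between block and rest was the same, -0.44. The rest was at -0.086 at a mean of 50 and -0.050 to 0.0087 with a library left out.

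The step at the start (-0.29) was -0.17 with quantile normalization, -0.51 with no filter, -0.14 with edgeR, -0.13 with DESeq2, and -0.43 to -0.15 with a library left out. The step at the end (0.00) was -0.19 with quantile normalization, -0.23 with no filter, -0.19 at a minimum of 5, -0.45 at a mean of 50, -0.18 for protein-coding genes, and -0.29 to 0.20 with a library left out. The number of gaps (9) was 4 with windows of 51 genes and 3 at a minimum of 5, at a mean of 50 and for protein-coding genes. The read share difference (-0.99 points) was -1.10 without mitochondrial genes and -0.72 without the 10 members of highest level. The cause of these changes was not tested.

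Of 68 named genes, 26 changed call or sign in some alternative. None of those that changed sign was called in the main limma-trend fit, though some, among them GRN, NFE2L1 and EIF1, were called in an alternative. With median centring SLC46A1 was at -0.060, GRN at -0.052, NPEPPS at -0.10, NFE2L1 at -0.0036, CBX1 at -0.11, COL1A1 at -0.086, WIPI1 at -0.11 and RHBDF2 at -0.087. EIF1 was at 0.028 with quantile normalization, and PRCD at 0.12 with edgeR and with DESeq2. With a library left out, RHBDL3 ranged from -0.52 to 0.072, C17orf75 from -0.13 to 0.052, CBX1 from -0.019 to 0.054, COL1A1 from -0.022 to 0.11, WIPI1 from -0.020 to 0.12, RHBDF2 from -0.0074 to 0.092 and PRCD from -0.50 to 0.46.

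Replicate numbers are shared by the groups, but the deviations of same-numbered libraries correlated at -0.0015, 0.0001 and 0.0067, so they share only a number. With the replicate block, 384 members were called lower and 49 higher, again given without the share over all genes in that fit. Depth limits the sparse members most, and 411 of the 854 kept were at a mean under 50.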

Other observations

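Noncoding members, named after their values were seen, also went both ways. LINC00511, a long noncoding RNA, was called higher (819 ± 144 in the resistant against 550 ± 18.6 in the control libraries, SD, n = 3), and SNHG16, a host of small nucleolar RNAs, was not called (864 ± 49.4 against 813 ± 70.5). PRR11-AS1 was called lower (means 131 against 309), as was its partner PRR11, a cell cycle gene (log2 differences -1.23 and -1.38). Strand handling is not given in the sources used here, so the reads of that pair cannot be told apart. Of 216 long noncoding members that were tested, 41 were called lower (19.0%) and 7 higher (3.24%), and of 84 pseudogenes 19 were called lower (22.6%) and 3 higher (3.57%). Over all genes of every class 21.1% were called lower and 20.4% higher. Of 200 long noncoding genes on the rest of chromosome 17, 9.5% were called lower and 16% higher. Of 67 pseudogenes there, 5.97% were called lower and 7.46% higher. The shares called lower in the block were near that of all genes and above those of the same classes on the rest of the chromosome. The rule used this comparison, so nothing is read from them.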
